A study of Homo sapiens with 6 samples.

Results

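The expression of 34 genes of glucose metabolism was examined by RNA-seq in HCT116, a cell line from a human colorectal carcinoma. The genes encode glucose transporters, the enzymes of glycolysis and of the pentose phosphate pathway, lactate dehydrogenase, lactate transporters, pyruvate dehydrogenase kinases and uridine phosphorylase. They were chosen by name for their function, but with earlier results of these data known. All 34 were found among the 26255 gene symbols of the deposited files. Of the 34, 33 had a mean of at least 1 FPKM (fragment density, scaled to transcript length and library size) over the libraries and could be tested, and only SLC2A3 fell below this level. The 6 libraries formed 3 groups of 2, namely cells labelled parent and those that received siLINC01534-1 or siLINC01534-2. Both agents are small interfering RNAs (siRNAs) directed against the long noncoding RNA LINC01534. Transfection is not described for the parent cells, and libraries of cells given a negative control siRNA were not analysed here, so that transfection and the siRNAs themselves cannot be told apart. The methods of the study speak of triplicate cultures, whereas 2 libraries per group were analysed. Nothing in the labels says whether these came from separate cultures, so the p-values measure the spread between libraries, which may be technical.

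Glycolysis turns glucose into pyruvate and yields ATP and NADH. Glucose enters through SLC2A transporters, is trapped by hexokinase, is committed by phosphofructokinase, is split by aldolase and is oxidized from GAPDH onwards. Lactate dehydrogenase reduces pyruvate to lactate, which leaves the cell through SLC16A transporters, whereas pyruvate dehydrogenase kinases hold pyruvate back from the mitochondrial pyruvate dehydrogenase complex. The pentose phosphate pathway branches off early and supplies NADPH and ribose phosphate. Cancer cells are known for high glycolysis even in the presence of oxygen, and many genes of the pathway are known targets of the hypoxia-inducible factor HIF-1 and of MYC.

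The depth of the libraries, estimated from the steps between the lowest FPKM values, lay between 8690000 and 10400000 reads. LINC01534 itself was read in the parent libraries at 0.285 and 0.571 FPKM. It was listed at 0 and at 0.283 FPKM in the libraries labelled siLINC01534-1 and at 0.660 and 0.551 FPKM in those labelled siLINC01534-2. These values lie at the lowest steps above 0, that is on very few reads, so a reduction by either siRNA was not detectable at this depth. The study itself reported by qRT-PCR that each siRNA lowered LINC01534 in HCT116 cells, relative to a negative control siRNA. The groups are named here by their labels. Of 11 epithelial markers, 9 had a mean FPKM of at least 1, and their summed FPKM was 3650 to 3720 in parent, 3140 to 3150 with siLINC01534-1 and 3580 to 3750 with siLINC01534-2, the lowest being the siLINC01534-1 libraries. The 6 fibroblast markers summed to between 3.11 and 6.08 FPKM and 5 immune markers to between 3.59 and 8.13 FPKM. Within these lists DCN, LUM and CD3E were listed at 0 in every library. The fibroblast and immune sums were higher in 3 or more of the siRNA libraries than in either parent library, with COL1A1 and CD68 as their largest parts, and the part of these 3 marker lists in the results below was not tested. In such bulk libraries, a change in the number of cells and a change in the RNA per cell cannot be told apart.

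The mean levels of the 34 genes in parent cells spanned 0.557 to 4517 FPKM. FPKM is corrected for length, so that levels can be set side by side between genes. In parent cells GAPDH was highest, at 4517 ± 122 FPKM (SD, n = 2), and ranked 9 among all genes. It was followed by the enolase ENO1 at 1452 ± 41.6 FPKM (SD, n = 2), the lactate dehydrogenase subunit LDHB at 1180 ± 15.6 FPKM (SD, n = 2) and the pyruvate kinase PKM at 1063 ± 13.2 FPKM (SD, n = 2), and these neighbours lay further apart than their spread. These 4 genes exceeded 1000 FPKM, 11 genes lay between 100 and 1000, 14 between 10 and 100 and 5 below 10. The lowest 5 began with the regulatory genes PFKFB4 and PFKFB2, not separated beyond their spread at 5.98 ± 0.776 and 5.82 ± 0.153 FPKM (SD, n = 2). PDK3 followed at 3.32 ± 0.267, PDK1 at 1.55 ± 0.00659 and the transporter SLC2A3 at 0.557 ± 0.00116 FPKM (SD, n = 2). Reads of the abundant enzymes can also map to processed pseudogenes. The annotation lists 118 pseudogenes named after 16 of the 34 genes, 65 of them after GAPDH, and only 3 of the 118 had a value in the files.

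**Figure D1:**
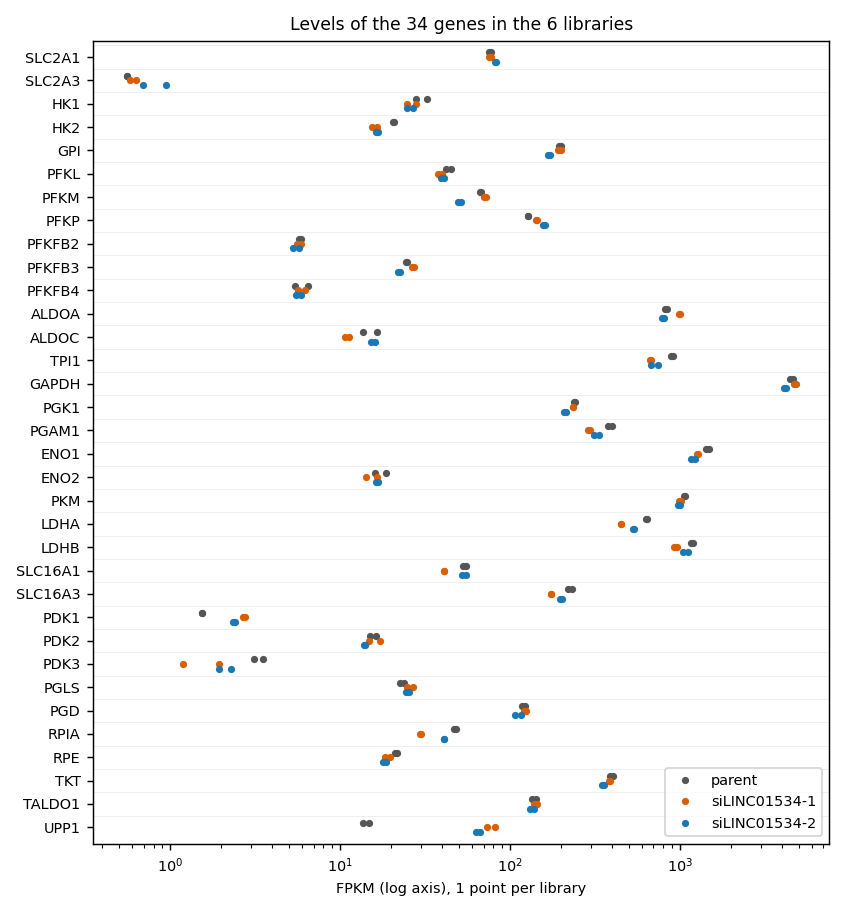
FPKM on a log axis of the 34 genes, 1 point per library, in the order of the pathway (parent, siLINC01534-1 and siLINC01534-2 in 3 colours). GAPDH lies highest and SLC2A3 lowest, and UPP1 is the gene whose siRNA libraries are furthest from the parent libraries.

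The comparison of siRNA and parent cells asks how the cells respond to an siRNA against LINC01534. With both siRNAs averaged, 19 of the 33 genes passed the test, beside 37.2% of all tested genes. Of these, 4 rose and 15 fell, whereas 14 did not pass the test (limma on log2(FPKM + 1), Benjamini-Hochberg adjusted p under 0.05 over all 12203 tested genes). Over all tested genes, 17.1% rose and 20.1% fell by the same test. The genes that rose were UPP1, PDK1, PFKP and ALDOA. Those that fell were HK2, GPI, PFKM, TPI1, PGK1, PGAM1, ENO1, LDHA, LDHB, SLC16A1, SLC16A3, PDK3, RPIA, RPE and TKT. In fits that left out 1 library, 10 of the 19 calls held throughout, those of HK2, PFKP, TPI1, PGAM1, ENO1, LDHA, SLC16A3, PDK1, RPIA and UPP1. The calls of TKT and ALDOA were lost in 6 of 6 such fits, those of GPI and PGK1 in 5, that of RPE in 4 and that of PDK3 in 3. The changes were mostly small, with a median log2 fold change of -0.11 over the 33 genes beside -0.0070 over all tested genes, and the median absolute log2 fold change was 0.16 in both. In 4 of the 33 genes all siRNA libraries lay above both parent libraries and in 14 they all lay below them. The background for this was 19% of tested genes above and 19.3% below.

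Against parent, 15 genes passed with siLINC01534-1 and 15 with siLINC01534-2, beside 46.3% and 22.8% of all tested genes. With siLINC01534-1, 4 rose and 11 fell, where 21.8% and 24.5% of all tested genes did so. With siLINC01534-2, 3 rose and 12 fell, where the background was 11.1% and 11.8%. UPP1, PDK1 and PFKP rose with each siRNA, and HK2, TPI1, PGAM1, ENO1, LDHA, SLC16A3 and RPIA fell with each. Over all tested genes 6.99% rose and 6.52% fell with each siRNA. No member was called in opposite directions by the siRNAs in the main fit, which happened for 2.12% of tested genes. PFKM and GAPDH were so called, however, when each library was centred on its median. PFKFB3 was so called when only genes of at least 5 FPKM were tested. The comparisons share the parent libraries, so their calls are not independent. The count for both siRNAs was 10 without the first parent library and 12 without the second. For siLINC01534-2 the count was 5 and 4 without these libraries, and 7 and 6 without its own first and second library. When the 4 siRNA libraries were treated as a single group, which adds any difference between siRNAs to the error, only UPP1 (higher) and TPI1 (lower) stayed past the threshold.

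**Figure D2:**
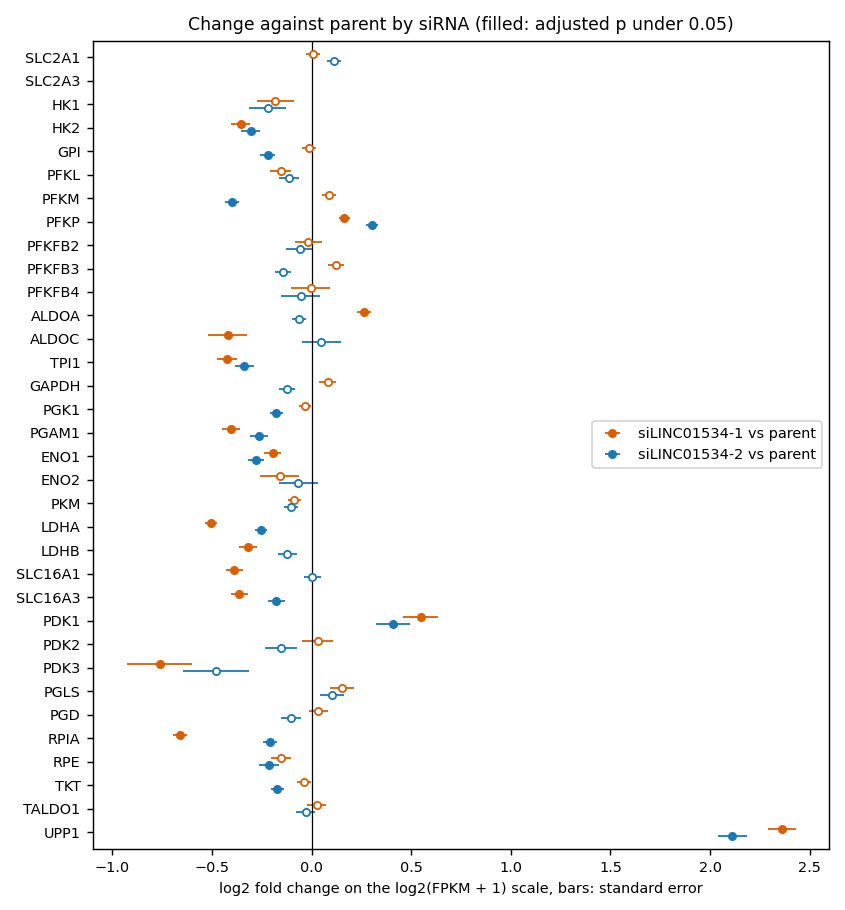
Log2 fold change against parent of 33 tested genes for siLINC01534-1 and siLINC01534-2, with standard errors, on the log2(FPKM + 1) scale and in the order of the pathway. Filled points passed an adjusted p of 0.05, and UPP1 stands apart above 2 with both siRNAs (SLC2A3 was below the level for testing).

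At the entry of glucose the transporters were not lowered and hexokinase 2 was. SLC2A1, the widespread basal glucose transporter, had 75.1 and 77.3 FPKM in parent cells, 77.8 and 75.3 with siLINC01534-1 and 81.6 and 83.2 with siLINC01534-2. The siLINC01534-2 libraries were the highest, yet the log2 difference from parent was 0.11 and did not pass (standard error 0.037, adjusted p = 0.0814). SLC2A3, a transporter of high affinity, had 0.556 and 0.558 FPKM in parent cells, 0.632 and 0.58 with siLINC01534-1 and 0.952 and 0.692 with siLINC01534-2. These values rest on roughly 20 to 30 reads per library, and all 4 siRNA libraries lay above both parent libraries.

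Hexokinase phosphorylates glucose and so keeps it in the cell. HK2, the hexokinase that many tumors induce, had 20.8 and 20.6 FPKM in parent cells, 16.4 and 15.5 with siLINC01534-1 and 16.8 and 16.3 with siLINC01534-2. The parent libraries were the highest and the siRNA libraries overlapped with each other. The log2 fold change was -0.36 with siLINC01534-1 (standard error 0.048, adjusted p = 0.00273) and -0.31 with siLINC01534-2 (standard error 0.048, adjusted p = 0.0117). The call with siLINC01534-2 was lost without either parent library or either of its own libraries (adjusted p between 0.0529 and 0.069). HK1, the housekeeping hexokinase, had 28.1 and 32.4 FPKM in parent cells, 28.1 and 24.9 with siLINC01534-1 and 26.8 and 24.7 with siLINC01534-2. The parent libraries lay far apart and the first of them overlapped with the siLINC01534-1 libraries, and neither siRNA passed the test (adjusted p = 0.162 and 0.147). GPI, which converts glucose phosphate to fructose phosphate, had 195 and 201 FPKM in parent cells, 192 and 200.3 with siLINC01534-1 and 171 and 168 with siLINC01534-2. It fell with siLINC01534-2, by 0.22 on the log2 scale (adjusted p = 0.0143), and a test between the siRNAs passed (0.21, adjusted p = 0.00852). The fall with siLINC01534-2 was lost in 4 of 6 fits that left out 1 library, those without a parent library or one of its own (adjusted p up to 0.076).

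Phosphofructokinase 1, which commits sugar to glycolysis, is built from the subunits PFKL, PFKM and PFKP. PFKP (platelet type) rose with each siRNA, PFKM (muscle type) fell with siLINC01534-2 alone, and PFKL (liver type) did not pass. PFKP had 128.2 and 128.4 FPKM in parent cells, 143 and 145 with siLINC01534-1 and 159.9 and 158 with siLINC01534-2. The groups did not overlap, and the log2 fold change was 0.17 with siLINC01534-1 (standard error 0.030, adjusted p = 0.00756) and 0.31 with siLINC01534-2 (standard error 0.030, adjusted p = 0.00328). PFKM had 67.3 and 66.8 FPKM in parent cells, 71.99 and 70.7 with siLINC01534-1 and 51.5 and 49.8 with siLINC01534-2. Its siLINC01534-1 libraries lay above parent without passing (log2 fold change 0.087, adjusted p = 0.0916), although they passed after centring on the median (0.13, adjusted p = 0.0332), and its siLINC01534-2 libraries lay below (log2 fold change -0.40, standard error 0.035, adjusted p = 0.00246). The siRNAs differed in PFKM by 0.49 on the log2 scale (adjusted p = 0.000466). The call of PFKM for both siRNAs averaged was lost without the first (adjusted p = 0.071) or the second parent library (adjusted p = 0.0637). PFKL had 42.3 and 44.7 FPKM in parent cells, and between 38.0 and 41.2 FPKM in the siRNA libraries, all below parent. It did not pass for either siRNA (adjusted p = 0.0504 and 0.167), but passed with siLINC01534-1 when only genes of at least 5 FPKM were tested (adjusted p = 0.0439).

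The shares of the 3 subunits in their summed FPKM shifted accordingly. PFKP made up 53.9% and 53.5% in the parent libraries, 56.1% and 57.1% with siLINC01534-1 and 63.8% and 63.4% with siLINC01534-2. PFKM made up 28.3% and 27.8% in parent cells, 28.2% and 27.9% with siLINC01534-1 and at most 20.5% with siLINC01534-2. With 4 libraries against 2, an exact permutation test cannot give a two-sided p below 0.133, so that shares and ratios are given as descriptions. The bifunctional PFKFB enzymes, which set the level of the phosphofructokinase activator fructose 2,6-bisphosphate, showed less. PFKFB3 had 24.9 and 24.5 FPKM in parent cells, 27.3 and 26.7 with siLINC01534-1 and 22.7 and 21.9 with siLINC01534-2. Neither siRNA passed against parent (adjusted p = 0.059 and 0.0575), although both did when only genes of at least 5 FPKM were tested (adjusted p = 0.0433 and 0.0397). The siRNAs differed from each other by 0.27 on the log2 scale (adjusted p = 0.00527). PFKFB2 ranged from 5.32 to 5.93 FPKM and PFKFB4 from 5.43 to 6.53 FPKM over all libraries, and neither passed in any comparison.

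**Figure D3:**
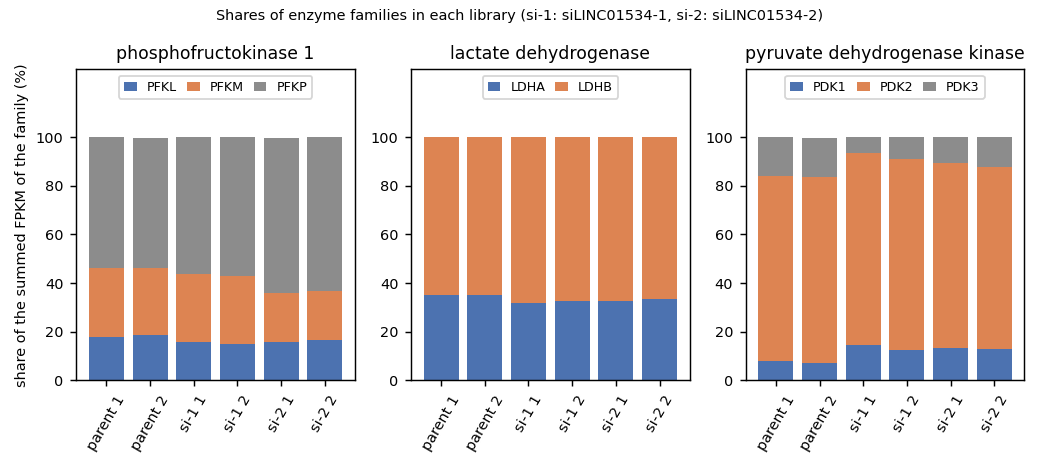
Shares in percent of the summed FPKM that each member of the phosphofructokinase 1, lactate dehydrogenase and pyruvate dehydrogenase kinase families held in each library. PFKP reached 63.8% with siLINC01534-2, LDHA held 35.1% in the first parent library and between 31.7% and 33.4% in siRNA libraries, and PDK1 held at most 7.91% in parent and at least 12.6% in siRNA libraries.

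Aldolase splits fructose bisphosphate into trioses, and its forms ALDOA and ALDOC moved apart with siLINC01534-1. ALDOA, the main form here, had 822 and 843 FPKM in parent cells, 1009 and 990.4 with siLINC01534-1 and 809 and 783 with siLINC01534-2. It rose with siLINC01534-1 (log2 fold change 0.26, standard error 0.035, adjusted p = 0.00251) but not with siLINC01534-2 (-0.065, adjusted p = 0.235), and the siRNAs differed (0.33, adjusted p = 0.00149). Its call for both siRNAs averaged was lost whichever library was left out (adjusted p between 0.0681 and 0.201). ALDOC, the brain form, had 16.6 and 13.6 FPKM in parent cells, 11.3 and 10.7 with siLINC01534-1 and 16.0 and 15.2 with siLINC01534-2. Its fall with siLINC01534-1 was -0.42 on the log2 scale (standard error 0.097, adjusted p = 0.0176) and was lost without the first (adjusted p = 0.068) or the second siLINC01534-1 library (adjusted p = 0.0986).

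TPI1 interconverts the trioses and was among the genes that fell most at the higher levels. It lies on chromosome 12 of GRCh37 from 6976283 to 6980112 on the plus strand, on the same chromosome as GAPDH (6643678 to 6647540, plus strand). TPI1 had 887 and 911 FPKM in parent cells, 675 and 664 with siLINC01534-1 and 743 and 681 with siLINC01534-2. Every siRNA library lay below both parent libraries. The log2 fold change was -0.43 with siLINC01534-1 (standard error 0.049, adjusted p = 0.00161) and -0.34 with siLINC01534-2 (standard error 0.049, adjusted p = 0.00922). The call with siLINC01534-2 was lost without the first (adjusted p = 0.0546) or the second parent library (adjusted p = 0.0645). In TPI1 the siRNAs did not pass a test of their difference (-0.087, standard error 0.049, adjusted p = 0.204).

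GAPDH, which oxidizes glyceraldehyde phosphate, was the reference of the qRT-PCR in this study. It had 4431 and 4604 FPKM in parent cells, 4823 and 4728 with siLINC01534-1 and 4195 and 4100 with siLINC01534-2. The siLINC01534-1 libraries were the highest and the siLINC01534-2 libraries the lowest. Neither siRNA passed against parent, with log2 fold changes of 0.080 (standard error 0.041, adjusted p = 0.159) and -0.12 (standard error 0.041, adjusted p = 0.0838). After each library was centred on its median, however, GAPDH passed with siLINC01534-1 (0.12, adjusted p = 0.0319) and with siLINC01534-2 (-0.13, adjusted p = 0.046). The siRNAs differed from each other by 0.20 on the log2 scale (adjusted p = 0.0122), a call that was lost without any 1 of the siRNA libraries (adjusted p between 0.0573 and 0.0997).

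The next steps yield ATP and pyruvate. PGK1, a kinase that makes ATP, had 238 and 240.2 FPKM in parent cells, 233.6 and 233.7 with siLINC01534-1 and 208 and 215 with siLINC01534-2. It passed with siLINC01534-2 (log2 fold change -0.18, adjusted p = 0.0167) and not with siLINC01534-1 (-0.034, adjusted p = 0.415), and the siRNAs differed (0.14, adjusted p = 0.0172). The call with siLINC01534-2 was lost without either parent library or the first siLINC01534-2 library (adjusted p between 0.0693 and 0.0773).

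PGAM1, the phosphoglycerate mutase, fell with each siRNA. It had 379 and 397 FPKM in parent cells, 297 and 289 with siLINC01534-1 and 333 and 313 with siLINC01534-2, without overlap between siRNA and parent libraries. The log2 fold change was -0.40 (standard error 0.045, adjusted p = 0.00146) with siLINC01534-1 and -0.26 (standard error 0.045, adjusted p = 0.0151) with siLINC01534-2. The latter call was lost without the first (adjusted p = 0.0546) or the second parent library (adjusted p = 0.081) or the second siLINC01534-2 library (adjusted p = 0.0725). ENO1, the main enolase, had 1423 and 1482 FPKM in parent cells, 1259 and 1276 with siLINC01534-1 and 1225 and 1168 with siLINC01534-2. It fell by 0.20 and by 0.28 on the log2 scale (adjusted p = 0.0123 and 0.00933). For siLINC01534-1 the call was lost without the second parent library or either of its own libraries (adjusted p between 0.0601 and 0.0757), and for siLINC01534-2 without the second parent library (adjusted p = 0.059) or its own second library (adjusted p = 0.0599). ENO2, the neuronal enolase, ranged from 14.3 to 18.7 FPKM with overlapping groups, and PKM from 973 to 1072 FPKM. PKM was lower in every siRNA library than in parent but did not pass for both siRNAs averaged (log2 fold change -0.096, adjusted p = 0.0507), which changed to a pass when the pseudocount was 0.1 (adjusted p = 0.0454) or only genes of at least 5 FPKM were tested (adjusted p = 0.0426). The files give 1 value per gene, so the isoforms of PKM were not separated.

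Genes for lactate production and export fell with siLINC01534-1, and LDHA and SLC16A3 fell with both siRNAs. LDHA, the subunit that favours lactate formation, lies on chromosome 11 from 18416107 to 18429972 on the plus strand of GRCh37. It had 632 and 642 FPKM in parent cells, 449.9 and 448 with siLINC01534-1 and 540.1 and 527 with siLINC01534-2. The 3 groups did not overlap, with the siLINC01534-2 libraries in between. The log2 fold change was -0.50 with siLINC01534-1 (standard error 0.031, adjusted p = 0.000218) and -0.26 with siLINC01534-2 (standard error 0.031, adjusted p = 0.00576), and the siRNAs differed (-0.25, adjusted p = 0.00256). LDHB, the subunit that favours pyruvate formation, had 1169 and 1191 FPKM in parent cells, 969 and 925 with siLINC01534-1 and 1120 and 1051 with siLINC01534-2. It fell with siLINC01534-1 (log2 fold change -0.32, standard error 0.045, adjusted p = 0.00338) and did not pass with siLINC01534-2 (-0.12, adjusted p = 0.113). Its call for both siRNAs averaged was lost without the first (adjusted p = 0.0556) or the second parent library (adjusted p = 0.0727). LDHA made up at most 35.1% of the summed FPKM of both subunits in parent cells, where its ratio to LDHB was 0.541 and 0.539. The ratio was 0.464 and 0.484 with siLINC01534-1 and 0.482 and 0.501 with siLINC01534-2. It was thus lower in all 4 siRNA libraries (log2 difference -0.16).

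The promoter of LDHA was examined because this gene fell with each siRNA and is a known target of HIF-1 and MYC. Promoters, from 250 bases before to 50 bases after the start in the RefSeq table of GRCh38.p14, were matched for 31 of the 34 genes. For these and for tested genes only the first entry of each gene was used, so any other start was not examined. The promoters were searched on both strands for 3 motifs. These were the core of the hypoxia response element (ACGTG), the E-box (CACGTG) and the CEBP-ATF element of stress-responsive genes (TGATGNAA). The E-box contains the hypoxia core on each strand, so that an E-box counts as 2 cores. The hypoxia core was found in 10 of the 31 promoters, beside 21.4% of all 35116 promoters and 27.3% of those of 9009 tested genes. The E-box was found in 3 of 31, beside 7.26% of all promoters and 10.5% of those of tested genes. The CEBP-ATF element was found in 1 of 31, that of HK1, beside 3.62% and 1.5%. LDHA held the most matches of the 31 by this count, with 5 hypoxia cores that include 2 E-boxes. Counted by separate positions, LDHA did not exceed PGK1, which held 3 hypoxia cores apart from each other. The 300 bases of its promoter, chr11:18394313-18394612 on the plus strand of GRCh38.p14, are shown with the matches in capitals. A match is a description of these letters and not evidence of binding.
LDHA: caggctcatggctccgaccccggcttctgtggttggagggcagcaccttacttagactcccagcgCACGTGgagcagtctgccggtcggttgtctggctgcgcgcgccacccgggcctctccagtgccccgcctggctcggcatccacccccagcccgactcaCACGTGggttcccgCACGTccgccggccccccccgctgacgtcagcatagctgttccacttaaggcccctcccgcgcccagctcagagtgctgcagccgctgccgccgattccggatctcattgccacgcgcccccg

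The lactate transporters differed by siRNA. SLC16A1, which carries lactate and pyruvate in both directions, had 54.8 and 52.9 FPKM in parent cells, 41.0 and 40.9 with siLINC01534-1 and 55.4 and 52.6 with siLINC01534-2. The siLINC01534-2 libraries lay around the parent values and the siLINC01534-1 libraries well below them. It fell with siLINC01534-1 (log2 fold change -0.39, standard error 0.042, adjusted p = 0.00132) and the siRNAs differed (-0.39, adjusted p = 0.0016). Its call for both siRNAs averaged was lost without the first parent library (adjusted p = 0.076). SLC16A3, the exporter typical of glycolytic cells, had 218 and 233 FPKM in parent cells, 175.3 and 175.2 with siLINC01534-1 and 196 and 203 with siLINC01534-2. It fell with siLINC01534-1 by 0.36 on the log2 scale (adjusted p = 0.00164) and with siLINC01534-2 by 0.18 (adjusted p = 0.0353). The latter call was lost whichever library was left out (adjusted p between 0.0528 and 0.138). SLC16A3 overlaps CSNK1D on the opposite strand, which had a mean of 54.1 FPKM, and whether the reads were assigned by strand is not given in the sources used here.

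The pyruvate dehydrogenase kinases, which switch off the pyruvate dehydrogenase complex, moved in opposite directions. PDK1 (chromosome 2 of GRCh37, 173420101 to 173473397, plus strand) had 1.55 and 1.54 FPKM in parent cells, 2.69 and 2.75 with siLINC01534-1 and 2.40 and 2.36 with siLINC01534-2. The groups did not overlap, and the means were 1.76-fold and 1.54-fold those of parent. On the log2(FPKM + 1) scale, which understates the change of low genes, PDK1 rose by 0.55 (standard error 0.086, adjusted p = 0.00472) and by 0.41 (standard error 0.086, adjusted p = 0.0262). The call with siLINC01534-2 was lost without either parent library or either of its own libraries (adjusted p between 0.077 and 0.0788). PDK3 (chromosome X, 24483361 to 24568583, plus strand) had 3.13 and 3.51 FPKM in parent cells, 1.19 and 1.95 with siLINC01534-1 and 1.93 and 2.27 with siLINC01534-2. All siRNA libraries lay below parent, and these values rest on roughly 16 to 54 reads per library. The means were 0.473 and 0.634 of that of parent. The fall passed with siLINC01534-1 (log2 fold change -0.76, standard error 0.165, adjusted p = 0.014) and not with siLINC01534-2 (-0.48, adjusted p = 0.0937). The former call was lost without the first (adjusted p = 0.0522) or the second parent library (adjusted p = 0.0766), and the siRNAs did not pass a test of their difference (-0.29, standard error 0.165, adjusted p = 0.217). PDK2, the most abundant of the family, ranged from 13.8 to 17.1 FPKM and did not pass in any comparison.

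The share of PDK1 in the summed FPKM of the family was 7.91% and 7.23% in parent cells, 14.3% and 12.6% with siLINC01534-1 and 13.1% and 12.8% with siLINC01534-2. That of PDK3 was 15.9% and 16.4% in parent cells, 6.36% and 8.91% with siLINC01534-1 and 10.5% and 12.3% with siLINC01534-2. PDK3 was thus above PDK1 in both parent libraries and below it in all 4 siRNA libraries. The log2 ratio of PDK1 to PDK3 was 1.61 higher in the siRNA libraries, a ratio chosen after these values were seen. The promoters of both are shown because these relatives moved apart. That of PDK1, chr2:172555123-172555422 on the plus strand of GRCh38.p14, held 0 matches to the 3 motifs, and that of PDK3, chrX:24465036-24465335 on the plus strand, held 1 hypoxia core, in capitals.
PDK1: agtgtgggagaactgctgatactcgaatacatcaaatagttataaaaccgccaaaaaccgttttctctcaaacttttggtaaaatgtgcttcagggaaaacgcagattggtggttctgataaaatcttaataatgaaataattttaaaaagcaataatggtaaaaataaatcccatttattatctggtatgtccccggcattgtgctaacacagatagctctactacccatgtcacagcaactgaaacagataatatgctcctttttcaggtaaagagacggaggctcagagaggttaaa
PDK3: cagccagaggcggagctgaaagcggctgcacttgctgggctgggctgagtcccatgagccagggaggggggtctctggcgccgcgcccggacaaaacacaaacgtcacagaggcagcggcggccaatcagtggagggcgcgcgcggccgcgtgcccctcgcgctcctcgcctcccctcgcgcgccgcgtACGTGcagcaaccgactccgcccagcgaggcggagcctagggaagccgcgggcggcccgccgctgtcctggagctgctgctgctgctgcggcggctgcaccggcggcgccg

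In the pentose phosphate pathway the oxidative genes did not pass, and RPIA fell with each siRNA. PGLS, the lactonase, had 22.5 and 23.9 FPKM in parent and between 24.4 and 27.0 FPKM in the siRNA libraries, all above parent, yet it did not pass with either siRNA (adjusted p = 0.0881 and 0.278). After centring on the median, PGLS passed with siLINC01534-1 (log2 fold change 0.19, adjusted p = 0.0432). PGD, which makes NADPH and ribulose phosphate, ranged from 107 to 124 FPKM, with siRNA libraries on either side of parent, and did not pass. Of the non-oxidative genes, RPIA, the isomerase that makes ribose phosphate, had 48.0 and 46.7 FPKM in parent cells, 29.8 and 29.4 with siLINC01534-1 and 41.0 and 40.8 with siLINC01534-2. The 3 groups were separate and the libraries of each agreed closely. The log2 fold change was -0.66 with siLINC01534-1 (standard error 0.036, adjusted p = 0.000157) and -0.21 with siLINC01534-2 (standard error 0.036, adjusted p = 0.0153), and the siRNAs differed (-0.45, adjusted p = 0.000642). The call with siLINC01534-2 was lost without either parent library or either of its own libraries (adjusted p between 0.0579 and 0.0761). RPIA lies on chromosome 2 of GRCh37 from 88991191 to 89050446 on the plus strand.

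Of the other non-oxidative genes, RPE and TKT fell with siLINC01534-2, by about as much as RPIA did. RPE, the epimerase, had 21.5 and 21.2 FPKM in parent and between 17.8 and 19.7 FPKM in the siRNA libraries. It passed with siLINC01534-2 (log2 fold change -0.21, adjusted p = 0.0366) and not with siLINC01534-1 (-0.16, adjusted p = 0.0542, or 0.0401 among genes of at least 5 FPKM), and the former call was lost whichever library was left out (adjusted p between 0.0565 and 0.143). TKT, the transketolase, had 391 and 403 FPKM in parent cells, 385 and 388 with siLINC01534-1 and 358 and 347 with siLINC01534-2. It passed with siLINC01534-2 (-0.17, adjusted p = 0.0219), a call also lost whichever library was left out (adjusted p between 0.0522 and 0.0993). TALDO1, the transaldolase, ranged from 132 to 144 FPKM and did not pass in any comparison.

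UPP1 showed by far the largest change of the 34 genes. UPP1 encodes uridine phosphorylase, which splits uridine into uracil and ribose phosphate, a sugar that can enter the pentose phosphate pathway and glycolysis. It lies on chromosome 7 of GRCh37 from 48128225 to 48148333 on the plus strand. UPP1 had 14.9 and 13.7 FPKM in parent cells, 81.4 and 73.4 with siLINC01534-1 and 63.0 and 66.9 with siLINC01534-2. The groups were far apart, with means of 14.3 ± 0.880, 77.4 ± 5.70 and 65.0 ± 2.82 FPKM (SD, n = 2). This was 5.43-fold with siLINC01534-1 (log2 fold change 2.36, standard error 0.071, adjusted p = 4.41e-05) and 4.55-fold with siLINC01534-2 (log2 fold change 2.11, standard error 0.071, adjusted p = 0.000158). UPP1 was the only one of the 33 genes whose mean over the 4 siRNA libraries exceeded the parent mean more than 2-fold, and none had a mean under 0.5 of it, beside 2.09% and 0.688% of all tested genes. Its call for both siRNAs averaged held under all alternatives, with an adjusted p of at most 0.00279. The siRNAs differed from each other by 0.25 on the log2 scale (standard error 0.071, adjusted p = 0.038), a call that was lost in 5 of 6 fits that left out 1 library, all but that without the second siLINC01534-1 library (adjusted p up to 0.166).

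The promoter of UPP1 is shown as that of the gene that rose most. In these 300 bases, chr7:48089004-48089303 on the plus strand of GRCh38.p14, there were 0 matches to the 3 motifs, and therefore no capitals.
UPP1: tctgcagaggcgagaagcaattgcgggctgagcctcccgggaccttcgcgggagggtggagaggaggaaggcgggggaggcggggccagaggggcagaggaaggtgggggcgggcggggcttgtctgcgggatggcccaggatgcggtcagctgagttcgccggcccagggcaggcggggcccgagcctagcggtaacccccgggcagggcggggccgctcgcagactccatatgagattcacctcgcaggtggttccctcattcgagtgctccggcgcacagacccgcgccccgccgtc

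**Figure D4:**
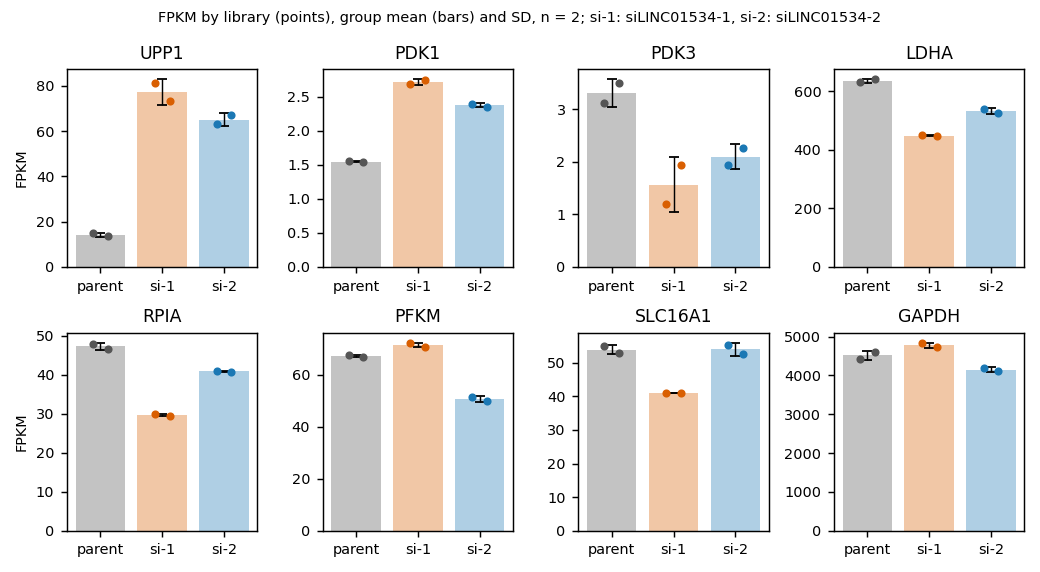
FPKM of 8 genes in parent, siLINC01534-1 (si-1) and siLINC01534-2 (si-2) cells, with points for libraries, bars for group means and lines for the SD (n = 2). UPP1 and PDK1 were higher and PDK3, LDHA and RPIA lower in all siRNA libraries, PFKM was lower with siLINC01534-2 only and SLC16A1 with siLINC01534-1 only, and GAPDH lay on either side of parent.

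The siRNAs were then compared with each other. Of the 33 genes, 15 differed between them, beside 41.8% of all tested genes. With siLINC01534-1, 8 were higher and 7 lower, beside 19.5% and 22.3%. The genes higher with siLINC01534-1 were GPI, PFKM, PFKFB3, ALDOA, GAPDH, PGK1, TKT and UPP1, of which 6 belong to glycolysis. Those lower with siLINC01534-1 were PFKP, ALDOC, LDHA, LDHB, SLC16A1, SLC16A3 and RPIA. All 4 lactate genes, namely both dehydrogenase subunits and both transporters, were thus lower with siLINC01534-1 than with siLINC01534-2. In fits that left out 1 library, 7 of the 15 calls held throughout, those of GPI, PFKM, PFKFB3, ALDOA, LDHA, SLC16A1 and RPIA. The count was 7 without the first siLINC01534-1 library, 9 without its second, 8 without the first siLINC01534-2 library and 10 without its second.

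GAPDH was set among 13 genes in common use as qRT-PCR references. Of the 13, 3 rose, 7 fell and 3 did not pass for both siRNAs averaged, and the 3 were GAPDH (log2 fold change -0.021, adjusted p = 0.667), HPRT1 (-0.048, adjusted p = 0.484) and TBP (-0.011, adjusted p = 0.839). For GAPDH and TBP the average joins values on either side of parent. GAPDH had 0.080 with siLINC01534-1 and -0.12 with siLINC01534-2. TBP had a mean of 19.4 FPKM in parent cells, 20.8 with siLINC01534-1 and 17.8 with siLINC01534-2. ACTB, the beta-actin gene, had 2314 and 2368 FPKM in parent cells, 1308 and 1278 with siLINC01534-1 and 1849 and 1806 with siLINC01534-2. It fell by 0.86 on the log2 scale with siLINC01534-1 (adjusted p = 8.18e-05) and by 0.36 with siLINC01534-2 (adjusted p = 0.00333). YWHAZ, which encodes a 14-3-3 protein, had 512 and 492 FPKM in parent cells, 196 and 205 with siLINC01534-1 and 525 and 514 with siLINC01534-2. It fell with siLINC01534-1 only (log2 fold change -1.32, adjusted p = 4.41e-05) and the siRNAs differed (-1.37, adjusted p = 5.83e-05).

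The remaining reference genes moved by less. For both siRNAs averaged, the log2 fold change was 0.32 for RPL13A, 0.18 for B2M and 0.15 for RPLP0. It was -0.31 for GUSB, -0.25 for PPIA, -0.24 for SDHA, -0.23 for TFRC and -0.11 for PGK1. All 8 passed for both siRNAs averaged. When every library was divided by its GAPDH value, as a qRT-PCR with this reference does, the log2 difference of GAPDH was taken off every gene, that is 0.080 for siLINC01534-1, -0.12 for siLINC01534-2 and 0.20 between the siRNAs. The calls among the 33 genes were then 3 higher and 16 lower with siLINC01534-1, instead of 4 and 11, while all tested genes went from 2662 and 2992 to 1774 and 3692. They were 5 higher and 6 lower with siLINC01534-2, instead of 3 and 12, while all tested genes went from 1351 higher and 1437 lower to 2807 and 492. Between the siRNAs they were 2 higher and 16 lower, instead of 8 and 7, while all tested genes went from 2374 and 2722 to 796 and 5372. Centring each library on its median gave 8 higher and 11 lower with siLINC01534-1, and 3102 and 2570 over all tested genes. These shifts are common to all genes and not particular to the 33.

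**Figure D5:**
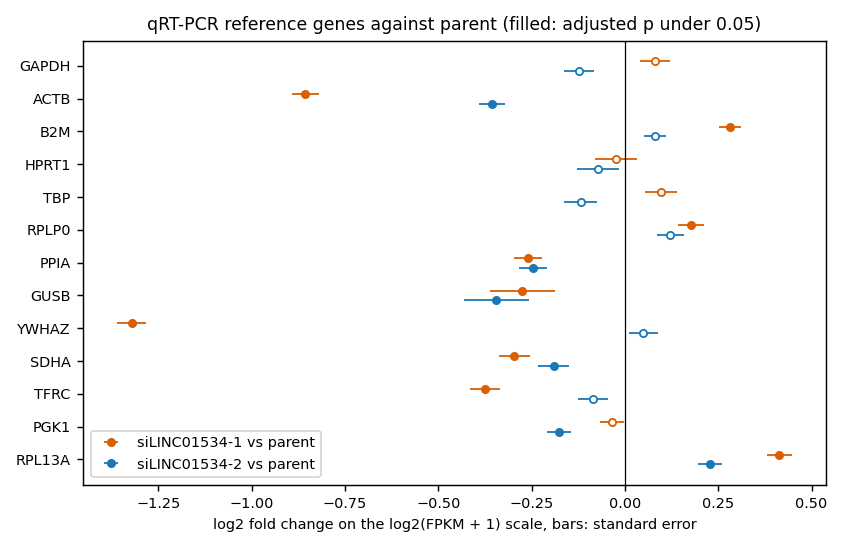
Log2 fold change against parent, with standard errors, of 13 genes in common use as qRT-PCR references for siLINC01534-1 and siLINC01534-2 on the log2(FPKM + 1) scale (filled points passed an adjusted p of 0.05). GAPDH, HPRT1 and TBP have open points for both siRNAs, and with siLINC01534-1 YWHAZ and ACTB lie furthest from 0.

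Other genes of these pathways were examined from lists written by function, also with earlier results of these data known. The calls of single genes in these lists were not checked by leaving out a library. Among 20 further genes of lactate and pyruvate handling, 13 were tested, and 9 of these fell and 0 rose for both siRNAs averaged, with a median log2 fold change of -0.25, beside 20.1% lower and 17.1% higher over all tested genes. With siLINC01534-1 7 fell and 1 rose, and with siLINC01534-2 3 fell and 0 rose. The list holds subunits of the pyruvate dehydrogenase complex, its phosphatase and the mitochondrial pyruvate carrier. PDP1, the phosphatase that reactivates the complex against the PDK kinases, had 301 and 284 FPKM in parent cells, 146.8 and 146.8 with siLINC01534-1 and 274 and 276 with siLINC01534-2. It fell with siLINC01534-1 (log2 fold change -0.99, adjusted p = 6.96e-05) and not with siLINC01534-2 (-0.090, adjusted p = 0.147), and the siRNAs differed (-0.90, adjusted p = 0.000123). PDHX, a structural subunit of the complex, fell with each siRNA (-0.36 and -0.40, adjusted p = 0.00745 and 0.0135). MPC1, a part of the pyruvate carrier, fell with siLINC01534-2 (-0.58, adjusted p = 0.00246) and did not pass with siLINC01534-1 (-0.13, adjusted p = 0.0795). SLC16A7, a further monocarboxylate transporter, had a mean of 1.29 FPKM and fell with siLINC01534-1 (-0.65, adjusted p = 0.00807).

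Among 19 further genes of the pentose phosphate pathway and ribose use, 15 were tested, of which 4 rose and 5 fell for both siRNAs averaged (median log2 fold change -0.066). PRPS1, which turns ribose phosphate into the precursor of nucleotides, had 54.1 and 52.4 FPKM in parent cells, 20.3 and 21.1 with siLINC01534-1 and 45.1 and 43.3 with siLINC01534-2. It fell with each siRNA (-1.32 and -0.26, adjusted p = 5.4e-05 and 0.0141), and the siRNAs differed (-1.06, adjusted p = 0.000123). PRPSAP2, a partner of the same enzyme, fell with siLINC01534-1 (-1.26, adjusted p = 0.00164). PGM3, of amino sugar synthesis, and H6PD, the hexose phosphate dehydrogenase of the endoplasmic reticulum, rose with siLINC01534-1 (0.72 and 0.67, adjusted p = 0.0034 and 0.00606).

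In the list of further genes of glycolysis and gluconeogenesis, 13 of 24 were tested, with 5 higher and 4 lower for both siRNAs averaged. PCK2, the mitochondrial enzyme that makes phosphoenolpyruvate, rose with siLINC01534-1 (0.96, adjusted p = 0.00589) and did not pass with siLINC01534-2 (0.36, adjusted p = 0.168). ENO3, the muscle enolase, rose with each (0.38 and 0.44, adjusted p = 0.0185 and 0.0229). PGAM5, a mitochondrial phosphatase related to the mutases, and GPD2, of the glycerol phosphate shuttle, fell with each siRNA, by 0.59 and 0.15 and by 0.47 and 0.20 respectively on the log2 scale. Of 16 further genes of glucose entry, 6 were tested, and HKDC1, SLC2A8 and ADPGK rose for both siRNAs averaged (0.41, 0.31 and 0.14, adjusted p = 0.02, 0.0429 and 0.022).

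Of 19 listed genes that regulate glycolysis, 18 were tested, with 2 higher and 4 lower for both siRNAs averaged, or 6 in all beside 37.2% of all tested genes. ARRDC4, an arrestin-domain gene induced by glucose through MondoA, had 1.46 and 1.51 FPKM in parent cells, 14.1 and 13.5 with siLINC01534-1 and 4.18 and 4.95 with siLINC01534-2. It rose with each siRNA (2.57 and 1.16, adjusted p = 5.4e-05 and 0.00169), and the siRNAs differed (1.41, adjusted p = 0.000321). ARNT, the partner of HIF-1 alpha, fell with each (-0.27 and -0.40, adjusted p = 0.00979 and 0.0071), MLX, the partner of MondoA, fell for both averaged (-0.16, adjusted p = 0.0346), and PRKAA1, a catalytic subunit of the energy sensor AMPK, rose (0.22, adjusted p = 0.0144). HIF1A and MYC themselves did not pass for both siRNAs averaged (0.13 and 0.077, adjusted p = 0.0602 and 0.111), although MYC rose with siLINC01534-1 (0.14, adjusted p = 0.0265).

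Known HIF targets outside glycolysis were counted beside the glycolytic genes. Of 20 listed, 18 were tested, and 10 rose and 4 fell for both siRNAs averaged, with a median log2 fold change of 0.30 beside -0.11 over the 19 tested glycolysis genes. Over all tested genes 17.1% rose and 20.1% fell. With siLINC01534-1 9 rose and 4 fell, and with siLINC01534-2 7 rose and 1 fell. DDIT4, an inhibitor of mTORC1, had 37.5 and 38.0 FPKM in parent cells, 101.6 and 96.0 with siLINC01534-1 and 97.6 and 109 with siLINC01534-2. It rose with each (1.37 and 1.43, adjusted p = 0.000104 and 0.000306), as did NDRG1, a stress-induced gene (0.92 and 1.01, adjusted p = 0.000211 and 0.000679). ADM, which encodes adrenomedullin, and KDM3A, a histone demethylase, rose for both siRNAs averaged (0.58 and 0.50, adjusted p = 0.00269 and 0.00643). The 4 that fell for both siRNAs averaged were ERO1A (-0.54), an oxidase of the endoplasmic reticulum, CA12 (-0.41), a carbonic anhydrase, AK4 (-0.39), a mitochondrial adenylate kinase, and BNIP3 (-0.27), a mitophagy receptor (adjusted p = 0.00313, 0.0285, 0.00358 and 0.0107). ERO1A fell with siLINC01534-1 (-1.18, adjusted p = 0.000268) and did not pass with siLINC01534-2 (0.10, adjusted p = 0.385), and the siRNAs differed (-1.28, adjusted p = 0.000311).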

How the data were processed

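Total RNA of HCT116 cells was made into stranded poly(A) libraries, and single-end reads were mapped to hg19 with TopHat2 2.0.13, Bowtie2 2.2.3 and SAMtools 0.1.19, per the methods and the submitters' processing notes. The authors deposited FPKM values per gene from Cuffnorm (Cufflinks 2.2.1), 1 file per library. The annotation and the use of strand in counting are not given in the sources used here. FPKM is not a count, and the estimated depth (8690000 to 10400000 reads) rests on steps between low values that were whole multiples, within 0.03 of a step, in 45.8% of 5396 low genes.

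The 6 libraries were grouped by their labels. Genes whose FPKM averaged 1 or more were tested on log2(FPKM + 1) with limma 3.58.1 in R 4.3.3 (lmFit, contrasts.fit, eBayes with a trend; 1 mean per group, shared spread, two-sided, Benjamini-Hochberg over 12203 genes, threshold 0.05). All 34 members are named. Of other lists, up to 4 genes with the largest change past the threshold and without overlap with parent are named, and 13 reference genes in full. A few listed genes are not reported here. LDHA, UPP1, PDK1 and PDK3 promoters, HIF1A, MYC, CD68, COL1A1, ERO1A, CA12, AK4, BNIP3 and list members at 0 were picked after their values were seen. The members and lists were chosen with earlier results of these data known. Alternatives were another pseudocount, 2 other filters, median centring, no trend, the replicate number as a block, the siRNA libraries as 1 group, leaving out each library and, chosen after seeing the data, division by GAPDH. Calls of single genes were followed under these alternatives for the members only. The fit was also run on simulated data with larger changes, equal for both siRNAs, which does not test calls of small changes. Coordinates of genes are from GENCODE on GRCh37, and promoters from RefSeq. Python 3.11.15, pandas 2.3.3, numpy 2.4.6 and matplotlib 3.10.9 were used.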

Additional observations from a re-analysis of the deposited data

Results flagged for a closer look

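The effects of the siRNAs differed from each other by the test of the difference itself (limma, siLINC01534-1 minus siLINC01534-2, adjusted p under 0.05) in 15 of the 33 genes, beside 41.8% of all tested genes, and 7 of the 15 calls held in all fits that left out 1 library. The log2 difference was 0.21 for GPI, 0.49 for PFKM, 0.27 for PFKFB3, 0.33 for ALDOA, 0.20 for GAPDH, 0.14 for PGK1, 0.14 for TKT and 0.25 for UPP1. It was -0.14 for PFKP, -0.47 for ALDOC, -0.25 for LDHA, -0.20 for LDHB, -0.39 for SLC16A1, -0.18 for SLC16A3 and -0.45 for RPIA. The causes of these differences were not tested. Groups of 2 libraries are too small to look for a library apart from the others.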

How the results depend on the processing

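The number of the 33 genes called for both siRNAs averaged was 19, and 2 when the 4 siRNA libraries were 1 group, where the difference between the siRNAs enters the error by construction. Over all tested genes the count was then 361 instead of 4541. Leaving out 1 library at a time, the count of members lay between 10 and 16 for both siRNAs averaged, between 13 and 15 for siLINC01534-1, between 4 and 12 for siLINC01534-2 and between 7 and 14 between the siRNAs. Over all genes the same counts lay between 2219 and 3689, 3907 and 5241, 857 and 1931, and 3196 and 4515. In these fits a lone library of a group is assumed to vary like those of the other groups. Division by GAPDH takes 0.20 off every log2 difference between the siRNAs, so that smaller positive differences must change sign. Among differences called before or after this division, the sign changed for PGK1 (-0.061), ENO1 (-0.12), PKM (-0.19), TKT (-0.069) and TALDO1 (-0.15). Of these, ENO1, PKM and TALDO1 were not called before. Sign changes of differences called in neither fit are not listed. Of 1737 values of single genes under the alternatives, 1528 counted as unchanged, 174 lost a call and 30 gained one. A further 5 changed sign with a call before or after. Values called in neither fit counted as unchanged even where their sign changed.

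The libraries share replicate numbers, but same-numbered libraries deviated together with correlations across genes of only 0.11, 0.027 and -0.046, so that the numbers were not taken to pair them. With the replicate block, 15 members instead of 19 were called for both siRNAs averaged, 15 as before for siLINC01534-1, 11 instead of 15 for siLINC01534-2 and 13 instead of 15 between the siRNAs. GPI, ALDOA, PGK1 and TKT lost their calls for both siRNAs averaged under the block (adjusted p up to 0.0989) and without the trend (up to 0.11). No count of reads was used, and PDK3 and SLC2A3 rest on roughly 16 to 54 reads per library.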
